A study of Mus musculus with 2 samples.

Results

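The 6 genes that carry acid, chloride and bicarbonate for bone resorption, namely Car2, Clcn7, Ostm1, Slc4a2, Slc9b2 and Slc4a7, were followed in RNA-seq of osteoclast cultures. They were chosen by name for their roles, with earlier results of these data known, and all 6 had an assembled locus of their own, of 14781 genes to which a locus was given in at least 1 library. Total RNA came from bone marrow cells of wild-type mice, as 2 libraries with 1 per condition. The library called M was from a culture with M-CSF, the growth factor that keeps the monocyte and macrophage lineage alive, and without RANKL. For M a first period of 2 days with M-CSF is given. Its total time in culture is not named in the sources used here and may differ from that of MR. The library called MR was from a culture with M-CSF for 2 days and then M-CSF together with RANKL, the cytokine that directs these cells to become osteoclasts, for 2 days by the labels. The paper's methods give a longer time with RANKL for bone marrow cultures and name no day for the RNA-seq harvest. The aligned bases came to about 3.63 Gb for M and 2.98 Gb for MR. The age of the mice and the number of mice per library are not given in the sources used here. With 1 library per condition there was no replicate check, so no p-value was computed and every difference below describes these libraries.

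An osteoclast seals a patch of bone under its ruffled border and dissolves the mineral with hydrochloric acid. Carbonic anhydrase II, encoded by Car2, makes protons and bicarbonate from carbon dioxide and water, and the V-ATPase pumps the protons into the sealed space. Chloride follows through the chloride-proton exchanger ClC-7 (Clcn7), which needs its β-subunit Ostm1 to be stable. The bicarbonate left in the cell is removed on the basolateral side in exchange for chloride by the anion exchanger Ae2 (Slc4a2), while the sodium bicarbonate cotransporter NBCn1 (Slc4a7) and the sodium-proton exchanger NHA2 (Slc9b2) also act on the pH of the cell. Loss of Car2, Clcn7, Ostm1 or Slc4a2 is known to cause osteopetrosis, in which bone is not resorbed.

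The sequences around the transcript starts are shown for the genes whose assembled locus in MR began within 100 bases of a RefSeq transcript start. RefSeq on GRCm38.p6 gave a window of 250 bases before to 50 bases after the start for 5 of the 6 genes, and 4 of them met this limit. The Slc4a7 start in RefSeq lay 15746 bases downstream of the start of the locus in MR, and Car2 was not among the windows. Of the windows of Clcn7 and Slc4a2, the one at the start of the locus is shown. Each line gives 120 bases before the start and 30 bases after it on the plus strand, and capitals mark a match to a motif searched in the whole window.
Clcn7, chr17:25133271-25133420: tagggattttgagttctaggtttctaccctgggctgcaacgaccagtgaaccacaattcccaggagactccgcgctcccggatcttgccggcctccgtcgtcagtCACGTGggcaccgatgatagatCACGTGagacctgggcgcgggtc
Slc9b2, chr3:135307580-135307729: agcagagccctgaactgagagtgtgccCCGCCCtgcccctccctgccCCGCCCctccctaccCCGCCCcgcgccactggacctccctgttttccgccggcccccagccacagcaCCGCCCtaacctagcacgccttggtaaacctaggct
Ostm1, chr10:42678796-42678945: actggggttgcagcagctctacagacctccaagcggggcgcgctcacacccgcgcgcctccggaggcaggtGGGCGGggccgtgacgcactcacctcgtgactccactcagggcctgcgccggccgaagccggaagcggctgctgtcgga
Slc4a2, chr5:24425112-24425261: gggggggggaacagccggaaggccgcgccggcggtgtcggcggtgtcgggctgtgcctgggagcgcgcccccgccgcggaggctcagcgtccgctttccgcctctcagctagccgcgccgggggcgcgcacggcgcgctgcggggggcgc

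The letters CACGTG, the E-box form bound by MITF and TFE factors among others, occurred in the Clcn7 window alone of these 4, at 15 bases before the start and again from base 8 of the transcript. They occur in 7.15% of the 32851 RefSeq windows. The GC box GGGCGG, on either strand, occurred 4 times before the start of Slc9b2 and once before the start of Ostm1, and is in 35.7% of all windows. The AP-1 letters TGANTCA, in 7.81% of all windows, were in none of the 4, and the NFAT core TGGAAA, in 21.4%, was in the Clcn7 window alone, 213 bases before the start on the minus strand and outside the stretch shown. The windows also differed in base composition. The Slc4a2 window held 37 CpG dinucleotides, that of Ostm1 23, that of Clcn7 17 and that of Slc9b2 14, against a median of 7 over all windows. These matches are a description of letters, and no binding was measured.

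All 6 genes had higher levels in MR. On the log2(TPM + 1) scale, where TPM is a level per transcript length scaled to a fixed total in each library, all 6 of 6 had a log2 ratio of MR to M above 1, against 21.2% of the 13464 genes compared, which had a locus of their own and reached a TPM of 1 in M or MR. None was below -1, against 13.3% of these genes. Since the genes were chosen with results known, this count is a description. The median log2 ratio of the 6 genes was 2.36, and that of all genes compared was 0.21. Car2 passed the filter through MR alone and so could only be higher. The median of the other 5 genes was 1.37. The difference was not even among the genes. Car2 and Slc9b2 had none or little in M and a high level in MR, Slc4a2 was about 10 times higher, and Clcn7, Ostm1 and Slc4a7 were 2 to 3 times higher, with Slc4a7 at 4.96 times when its largest locus alone was used. Whether a culture held more osteoclasts or its cells held more of an RNA cannot be told apart in such bulk libraries. All 10 osteoclast marker genes had a log2 ratio above 1, beside 21.2% of all genes compared. Their TPM summed to 152 in M and to 25318 in MR. Oscar, Calcr, Dcstamp and Ocstamp among them had no locus in M, passed the filter through MR alone and could only be higher. Of 8 macrophage markers 4 or 50% were lower by more than 1 on the log2 scale, beside 13.3% of all genes. The list summed to a TPM of 5652 for M against 3465 for MR. The fall was not even, with Fcgr1 at 1158 and 60.5 and Adgre1 at 681 and 148 in M and MR. Cd68 was at 2607 and 2171, and Csf1r was higher in MR, at 697 and 872.

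**Figure D1:**
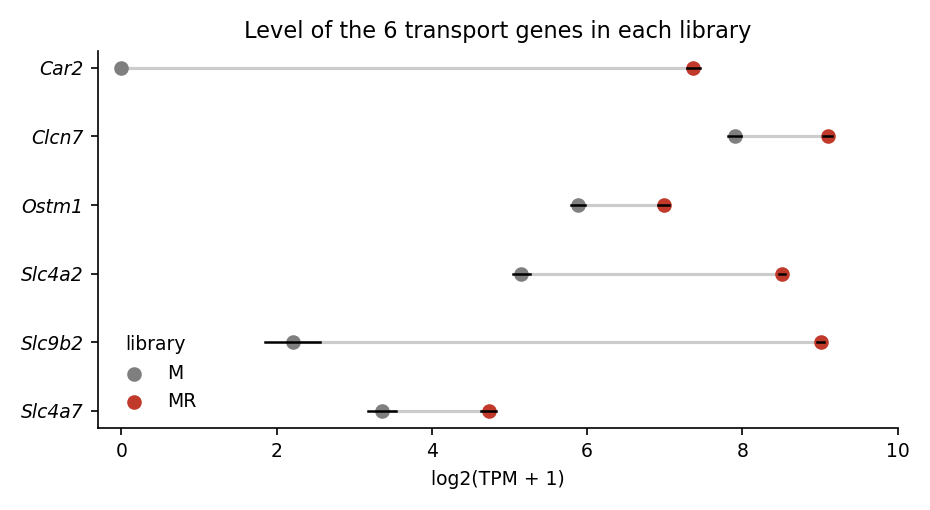
Level of each gene in each library, on a log2(TPM + 1) axis. Grey points are the M library, red points the MR library and black bars 95% counting intervals where read pairs could be estimated. Each red point lies to the right of the grey point of its gene, and Car2 is at 0 in M.

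The enzyme gene Car2 (ENSMUSG00000027562.12, chromosome 3, plus strand, 14886273 to 14900770, GRCm38) had no locus in M and stood at a TPM of 164 in MR. The MR value corresponded to about 1201 read pairs, which gave a 95% counting interval of 155 to 174 TPM. Read pairs were estimated from the listed coverage. Such intervals take their relative width from read pairs, are placed around the TPM or TPM fold and cover counting error only. Since Car2 was listed at 0 in M, no fold is given. A coverage of 1 read per base corresponded to a TPM of 0.595 in M, and at the TPM of MR the depth of M would have given about 1522 read pairs over this transcript. The log2 ratio of 7.37 was set by the pseudocount of 1 and became 10.68 with a pseudocount of 0.1. Among all genes compared 14 had a higher ratio. The MR locus extended from 14886216 to 14900716 and contained all 780 coding bases of Car2-201, its 7-exon transcript.

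Red blood cell precursors also express Car2, as well as Car1 and the erythroid anion exchanger Slc4a1. Of 10 erythroid markers, 6 had no locus in either library, Car1, Slc4a1 and Klf1 among them. The list summed to 8.71 TPM in M and to 4.64 TPM in MR. Their part in the Car2 value was not tested.

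Slc9b2 (ENSMUSG00000037994.14, chromosome 3, plus strand, 135307700 to 135345387) had the largest fold of the 5 genes listed in both libraries. Its TPM was 3.62 in M, with an interval of 2.61 to 4.89 from about 42 read pairs, and 514 in MR, with an interval of 499 to 530 from about 4351 read pairs. MR was 142-fold higher, with a counting interval of 105 to 197. The log2 ratio was 6.80, and 18 of the genes compared had a higher one. The width of the interval came from the few read pairs in M. Within its family Slc9b2 held 3.41% of the summed TPM in M and was the highest gene in MR.

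Slc4a2 (ENSMUSG00000028962.14, chromosome 5, plus strand, 24423837 to 24440950), the exporter of bicarbonate, was at 34.5 TPM in M (interval 32.0 to 37.3, about 668 read pairs) and 363 in MR (interval 352 to 374, about 4470 read pairs). The fold was 10.5, with an interval of 9.69 to 11.4, and the log2 ratio was 3.36. A higher ratio was found for 236 genes. The coverage listed for its loci was 85.9% in M and 70.9% in MR of the coverage to which the FPKM corresponds, and from coverage per aligned base the log2 ratio was 2.97. Slc4a7 (ENSMUSG00000021733.10, chromosome 14, plus strand, 14702279 to 14799940), which brings bicarbonate in with sodium, was the lowest of the 6 genes in MR. Its TPM was 9.27 in M (interval 8.05 to 10.6, about 209 read pairs) and 25.6 in MR (interval 23.9 to 27.4, about 832 read pairs). The TPM fold was 2.76, and the interval placed around it was 2.37 to 3.22. The value in M sums 2 fragments of the gene, and with the largest locus alone the fold was 4.96, outside this interval. The 2 bicarbonate transporters thus differed in TPM fold, with intervals that did not overlap, as well as in level.

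Clcn7 (ENSMUSG00000036636.10, chromosome 17, plus strand, 25133391 to 25162104) and Ostm1 (ENSMUSG00000038280.12, chromosome 10, plus strand, 42583822 to 42702459) encode the subunits of 1 exchanger and had ratios close to each other. The TPM of Clcn7 was 238 in M (interval 225 to 252) and 546 in MR (interval 524 to 569), which is 2.30-fold with an interval of 2.14 to 2.46. That of Ostm1 was 58.2 in M (interval 54.5 to 62.0) and 126 in MR (interval 120 to 132), which is 2.17-fold with an interval of 2.0 to 2.35. The intervals of the folds overlapped. Both genes were already among the more abundant genes in M, Clcn7 at percentile 95.6 and Ostm1 at percentile 82.5 of the genes compared. Their ratios were also the least apart from the rest, with 2292 genes above Clcn7 and 2540 above Ostm1. The level of Clcn7 was less certain than its ratio. Its listed coverage was 26.4% in M and 26.3% in MR of the coverage to which its FPKM corresponds, and the cause was not tested.

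The smaller differences were read against other scalings. Median-of-ratios scaling shifted the median log2 ratio of all genes by -0.17, and rescaling TPM after mitochondrial genes and the 20 genes of highest level were left out shifted it by -0.12. Relative to the median of all genes, the log2 ratio was 1.17 for Slc4a7, 0.99 for Clcn7 and 0.90 for Ostm1. Ostm1 was at 0.92 under median-of-ratios scaling, so that 5 of 6 genes were above 1, beside 2453 of the 13471 genes compared there. Clcn7 was at 1.01 and Slc4a7 at 1.201. Slc4a2 was at 3.18 under that scaling. Car2, Slc9b2 and Slc4a2 stayed above 2 in each alternative that gave their log2 ratio.

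**Figure D2:**
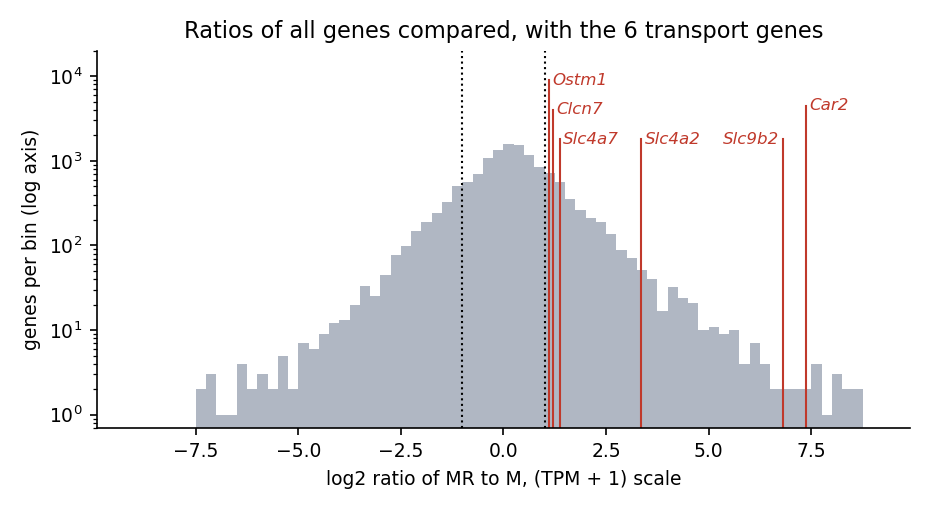
Histogram of the log2 ratio of MR to M for the 13464 genes compared, with the number of genes per bin on a log axis. Dotted lines mark ratios of -1 and 1 and red lines the 6 genes: Ostm1, Clcn7 and Slc4a7 lie just above 1, Slc4a2 at 3.36, Slc9b2 at 6.80 and Car2 at 7.37, the last being set by the pseudocount.

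The order of levels changed between the libraries. In M it was Clcn7, Ostm1, Slc4a2, Slc4a7, Slc9b2 and Car2. The counting intervals of neighbours did not overlap among the first 5, and Car2 had no interval in M. The interval of Slc4a7 is for the sum of its 2 fragments. The larger fragment alone was at 5.15 TPM, near the upper limit of 4.89 for Slc9b2, and no interval was computed for it. In MR it was Clcn7, Slc9b2, Slc4a2, Car2, Ostm1 and Slc4a7. Here Clcn7 and Slc9b2 did not differ beyond their intervals. From coverage per aligned base, Slc9b2, Slc4a2 and Car2 were above Clcn7 in MR, whereas the order in M remained as by TPM. Together the 6 genes reached 344 TPM in M and 1739 TPM in MR. Clcn7 made up 69.3% of this sum in M by TPM and 38.4% by coverage.

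The outer ends of the loci were compared with annotated transcript ends. The tables give no splicing, so that transcripts with like ends cannot be told apart. The Slc9b2 locus ended 2733 bases in M and 2862 bases in MR before the end of Slc9b2-201, the transcript that ends furthest downstream. In MR it ended 10 bases before the annotated end of the shorter Slc9b2-204. All 1641 coding bases were inside in both libraries. In MR, loci on the minus strand with a TPM of 7.38 and 22.3 overlapped this extent, the former also listed in M at 0.31, and since the sources used here name no strand setting, reads of such partners and of Slc9b2 may not be told apart. The Clcn7 locus ended at base 25161447 in both, 652 bases before the end of Clcn7-206, again beyond the coding sequence. Ostm1 loci began at the start of Ostm1-201, 2 bases after it in MR and 47 bases after it in M, and thus about 95 kb downstream of the upstream coding transcript Ostm1-202. In no library did an Ostm1 locus reach that upstream start.

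Slc4a7 was assembled as a single locus in MR, from 14703038 to 14799933, with all 3393 coding bases. In M it was broken into 2 loci, from 14703047 to 14733868 at a TPM of 4.12 and from 14737369 to 14799917 at a TPM of 5.15. The gap of 3500 bases between them contains no annotated exon base. The summed value of 9.27 in M thus counts both fragments of 1 transcript unit. With the larger fragment alone, MR was 4.96-fold higher, and with the loci averaged by their exon bases, a choice made after seeing the data, the log2 ratio was 2.13 instead of 1.37.

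Slc4a2 had a main locus that began 43 bases after the start of Slc4a2-201 in M and 53 bases after it in MR. In MR alone a further locus of 449 bases lay upstream, from 24423920 to 24424368, with a TPM of 5.14. It ended at the last base of the first exon of Slc4a2-209, a transcript with an upstream start. In M no locus was listed there, but the gene as a whole was 10.5-fold lower in M. A coverage of 1 read per base corresponded to a TPM of 0.595 in M. Whether so small a locus could have been listed at the level of M was not tested. The main locus stood at 33.7 TPM in M against 351 TPM in MR, so the upstream locus was a small part of the gene's level. A further locus of 639 bases within the gene had the extent and values of a named entry, Gm43828, at 0.80 TPM in M against 6.78 TPM in MR.

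**Figure D3:**
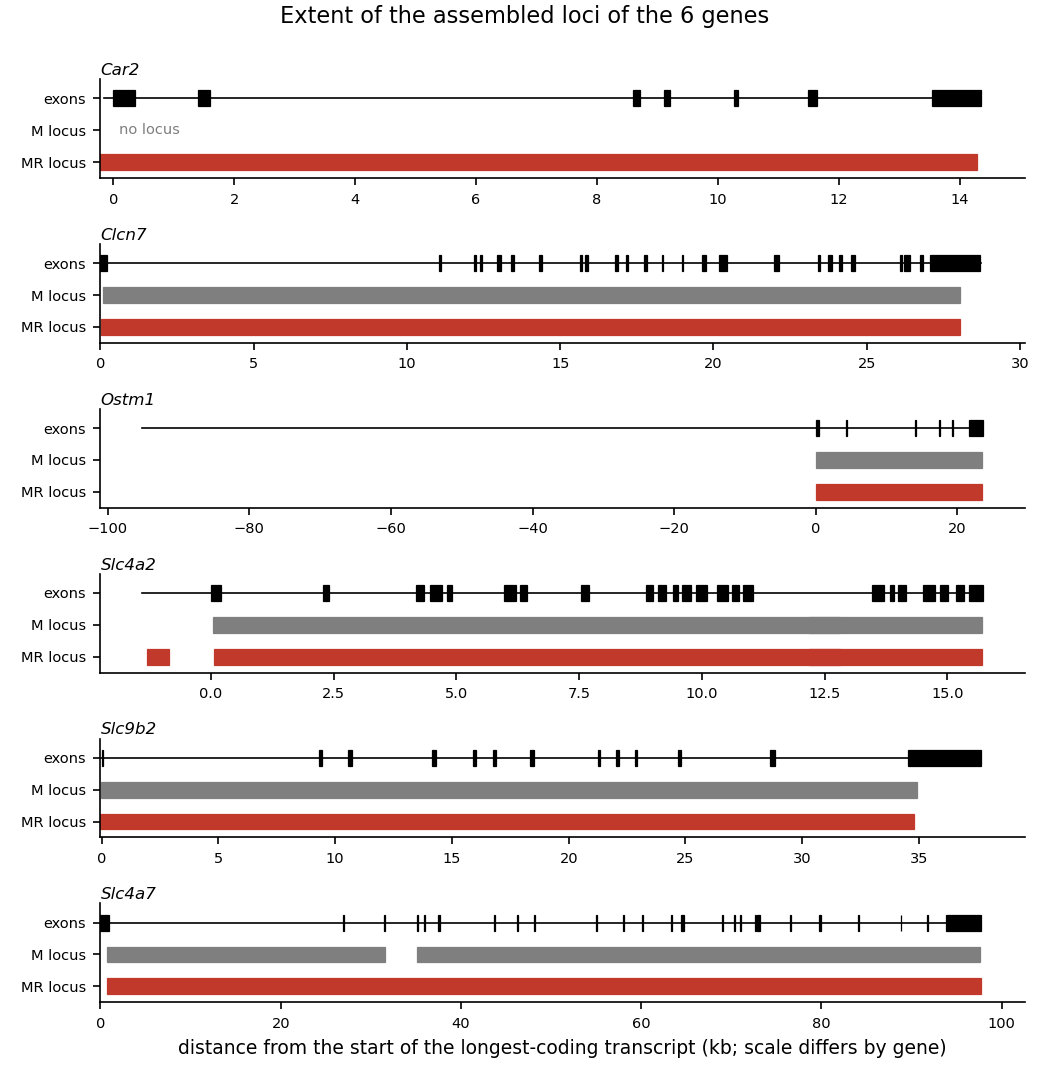
Extent of the loci of each gene in M (grey) and MR (red) under the exons of its transcript with the longest coding sequence (black boxes; the line spans the gene), against distance in kb from the start of that transcript, on a scale that differs by gene. Slc4a7 is broken in M and whole in MR, Slc4a2 has an upstream locus in MR, and Slc9b2 loci stop short of the last annotated end.

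Each gene was then set beside its own gene family. Of the 16 carbonic anhydrases, Car2 took 0% of the summed TPM in M and 77.9% in MR, while the 15 others summed to 45.4 in M and 46.6 in MR. The most abundant of these was Car13, a cytosolic isozyme, with 31.5 in M and 27.4 in MR. Of 5 other carbonic anhydrases compared, 1 had a log2 ratio above 1, which is 20% beside the 21.2% of all genes, and none was below -1. It was Car8, named after its values were seen, which was listed at 0 in M and at 2.72 in MR and could only be higher.

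Of the 12 sodium-proton exchangers, Slc9b2 took 3.41% of the family sum in M and 83.1% in MR, and the 11 others summed to 102 in M and 105 in MR. Among these were Slc9a8 at 30.7 and 25.3, Slc9a9 at 15.97 and 5.15, and Slc9a7 at 14.1 and 14.2, in M and MR. Of 8 compared, 1 or 12.5% was above 1 on the log2 scale, beside 21.2% of all genes. It was Slc9b1, named after its values were seen, at 1.05 in M and 6.39 in MR with a log2 ratio of 1.85. Below -1 were 2 or 25%, beside 13.3% of all genes. Of these 2, Slc9a4, named after its values were seen, was at 3.56 in M and 0 in MR and could only be lower. The rest of this family, like that of the carbonic anhydrases, had nearly equal sums in both libraries.

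In the CLC family Clcn7 already held 80.1% of the summed TPM in M, and it held 88.6% in MR. By coverage, which is the lower measure for this gene, the shares were 52.1% and 68.7%. The endosomal exchangers Clcn4 and Clcn3 were at 23.5 and 16.3 in M and at 31.1 and 18.4 in MR. Of 6 compared, 1 or 16.7% was above a log2 ratio of 1, beside 21.2% of all genes, and none was below -1, beside 13.3%. The gene above 1 was Clcn2, named after its values were seen. It was listed at 0 in M and at 3.05 in MR and could only be higher. In the Slc4 family Slc4a2 held 67.6% in M and 90.5% in MR, whereas the share of Slc4a7 was 18.2% in M and 6.38% in MR although its own level was higher there. With the largest locus of each gene alone, the share of Slc4a7 was 12.1% in M and 6.58% in MR. The 8 other Slc4 genes summed to 7.25 in M and 12.4 in MR. Of 4 compared, 2 or 50% were above 1 and 1 or 25% below -1, beside 21.2% and 13.3% of all genes. Slc4a8, Slc4a11 and Slc4a3 are named after their values were seen. Slc4a8, listed at 0 in M and at 4.56 in MR, could only be higher. Slc4a11, at 2.12 in M and 0 in MR, could only be lower. Slc4a3 was at a log2 ratio of 1.001. With median-of-ratios scaling 1 of the 4 genes compared was above 1, beside 2453 of all 13471 genes compared under it.

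**Figure D4:**
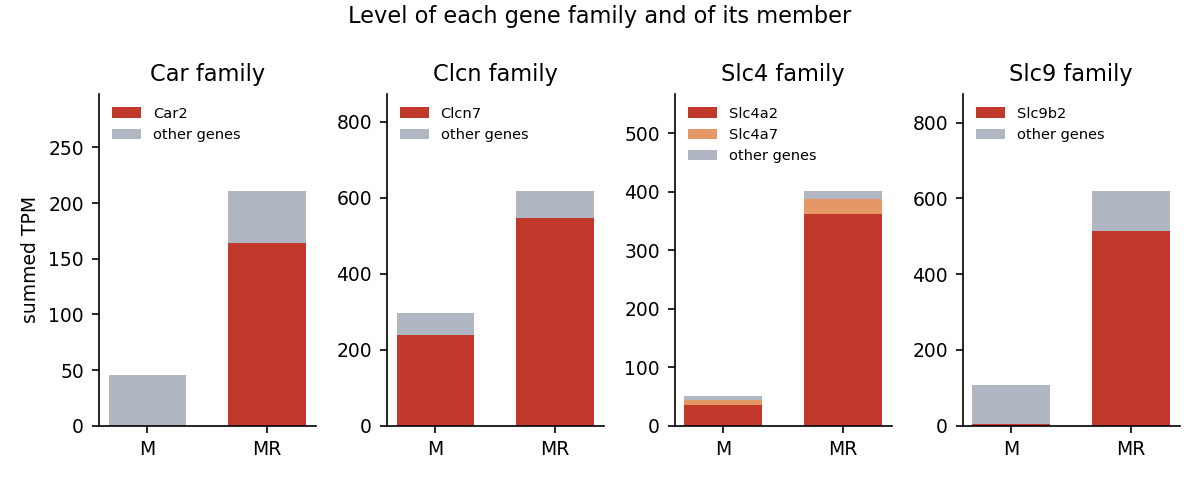
Summed TPM of 4 gene families in each library, with the transport genes in red and orange and all other genes of the family in grey. The grey parts are of similar height in M and MR for the Car and Slc9 families. Car2 is absent from the M bar, and the red parts of Slc4a2 and Slc9b2 are higher in MR.

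The partners of these transporters at the ruffled border were higher in MR as well. Of 12 V-ATPase subunits and ruffled border proteins, 9 or 75% had a log2 ratio above 1, beside 21.2% of all genes. None was below -1, beside 13.3% of all genes. The median was 1.502 beside the 0.21 of all genes. The proteolipid gene Atp6v0c was at 1989 in M and 4863 in MR, and the catalytic subunit gene Atp6v1a at 354 and 987. Atp6v1b2 was at 391 and 1675, and Tcirg1, which encodes the a3 subunit of the osteoclast pump, at 621 and 1183. The folds of these 4 genes ran from 1.90 for Tcirg1 to 4.28 for Atp6v1b2, beside 2.30 for Clcn7 and 2.17 for Ostm1. Over the whole list they ran from 1.27 for Plekhm1 to 227 for Atp6v0d2, the d2 subunit gene, which was at 4.25 in M and 965 in MR and is also an osteoclast marker.

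A list of other routes for protons, lactate and chloride gave a different count. It also holds the endolysosomal cation channel genes Tpcn1, Tpcn2 and Mcoln1. Of its 16 genes none was above a log2 ratio of 1, against 21.2% of all genes. Below -1 were 3 or 18.8%, which is near the 13.3% of all genes. The median was -0.40. Just under the limit was Tpcn1, named after its values were seen, with 29.0 in M, 58.9 in MR and a log2 ratio of 0.997. Clic1 was at 653 in M and 403 in MR, and its relative Clic4 at 241 and 324. The endolysosomal channel genes Tpcn2 and Mcoln1 were at 65.3 and 54.2 in M and at 35.6 and 61.8 in MR. Under median-of-ratios scaling 5 of the 16 were below -1 and none was above 1. Of the 13471 genes compared under that scaling, 2155 were below -1 and 2453 above 1.

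**Figure D5:**
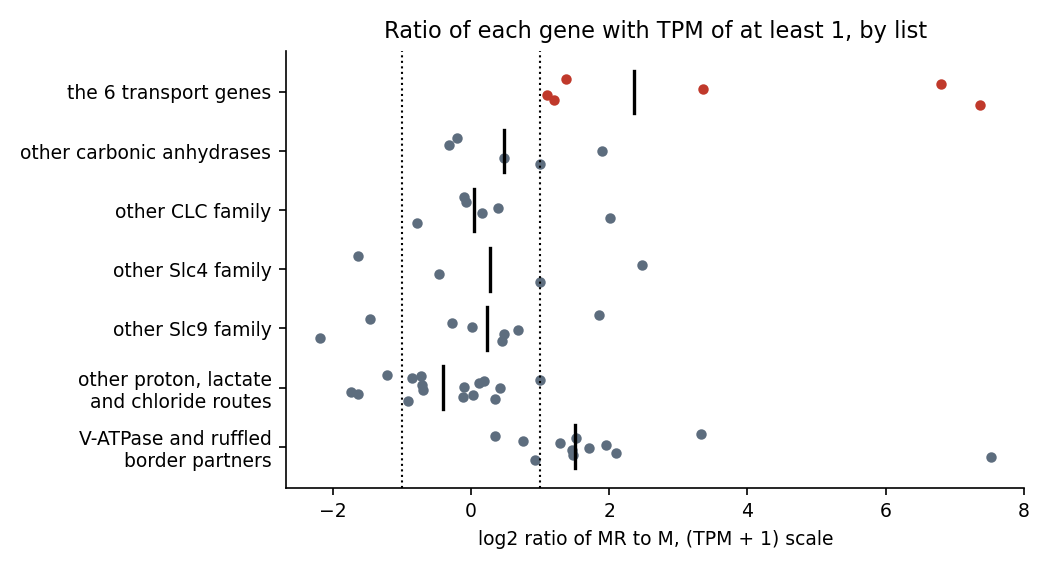
Log2 ratio of MR to M for each gene compared, by list, with the median of each list as a black bar and dotted lines at -1 and 1. The 6 transport genes lie above 1 with a median of 2.36, and the V-ATPase and ruffled border partners have a median of 1.502. The list of other proton, lactate and chloride routes, which includes endolysosomal cation channels, has one of -0.40.

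Markers of other marrow cells were present at differing levels. The 8 neutrophil markers summed to 1365 TPM in M and to 953 in MR, and 5 megakaryocyte markers to 541 in M and 72.9 in MR, of which Pf4 made up 505 and 38.4. The 4 megakaryocyte markers other than Pf4 summed to 36.04 and 34.47, and Ppbp among them was at 22.4 and 27.3. Stromal and osteoblast markers summed to 25.6 and 38.9, lymphoid markers to 9.23 and 7.04, and mast cell and basophil markers to 9.62 and 7.71. The neutrophil and macrophage sums and Pf4 were lower in the library in which the 6 genes were higher. The part of these cells in the values of the 6 genes was not tested.

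The genes whose pattern was nearest to each gene were found by Euclidean distance over log2(TPM + 1) in the 2 libraries, among 11768 other protein-coding genes. With 2 values per gene this describes level and ratio only. Nearest to Car2 were Rufy4, listed at 0 in M and at 173 in MR, and Siglec15, listed at 0 and at 200.3. Nearest to Slc9b2 were Coq8a, at 4.55 and 397, and Tm4sf19, at 5.25 and 375. Those 2 were at a distance of 0.46 and 0.63, and no gene was closer to Slc9b2. Slc4a2 was nearest to Tubb6, at 35.9 and 417, and to Plxnd1, at 32.0 and 298. The genes with smaller ratios had closer neighbours. Clcn7 was nearest to Atp5f1 and Eef1g, Ostm1 to Acadm and Hnrnph1, and Slc4a7 to Nectin2 and Hmces, with distances between 0.03 and 0.14.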

How the data were processed

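The deposited tables list, for each locus that StringTie assembled and for each entry with a gene name, a coverage (read depth per base, not scaled to library size), an FPKM and a TPM. The authors trimmed paired reads of 150 bases with Trim Galore, aligned them to mm10 with HISAT2 and calculated the values with StringTie on GENCODE vM27. The TPM score of the deposited tables sums to 1000000 over the assembled loci alone. vM27 positions refer to GRCm39, so entries with gene names were not used. Each assembled locus was given to the GENCODE vM21 gene (GRCm38) that shared the largest number of exon bases with it on the same or an unstated strand, with a minimum of 50 bases. It was treated as shared where it also covered 50% of the exon bases of another coding gene. TPM was summed per gene, and 95.4% of the TPM of M and 96.9% of that of MR was given to genes. Dividing coverage by FPKM gave a modal value that corresponds to 3.63 Gb of aligned bases for M and 2.98 Gb for MR.

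Ratios were log2((TPM + 1) of MR / (TPM + 1) of M). Read pairs were estimated as listed coverage times the bases of the main transcript in the locus, divided by 300. Exact 95% counting intervals of these read pairs gave the relative width of each interval, which was placed around the TPM or TPM fold. For Slc4a7 and Slc4a2 the fold from read pairs alone lies outside the interval of the TPM fold. Reads carried no molecular identifiers, so that read pairs are not independent molecules. Displaced entries with gene names overlapped some loci and may hold a part of their reads. The largest were Jpt2 over Clcn7, with 9.02% of its TPM in M and 8.70% in MR, and Nfkb1 over Slc9b2, with 9.91% and 6.01%. Sec63 over Ostm1 had 2.76% and 2.97%, and the other entries had smaller shares. The 6 genes and all lists were chosen with earlier results of these data known. Of each other list at most 4 genes with a TPM of at least 10 were named, in order of the higher TPM, and for cell type markers also genes at 0 where a result turns on them. Some genes that this rule would name are not reported here. Family shares by coverage or by the largest locus, and the megakaryocyte sum without Pf4, were added after the data were seen. Assignment was tested on simulated data with a single, nearly full-length locus per gene on its annotated strand. Broken loci, extra loci within a gene and loci without a strand were not simulated. Scripts used matplotlib 3.10.9, scipy 1.17.1, pandas 2.3.3 and numpy 2.4.6 under Python 3.11.15. The gene chip and qRT-PCR data were not analysed here.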

Additional observations from a re-analysis of the deposited data

How the results depend on the processing

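No log2 ratio of the 6 genes changed direction under the alternatives run, whereas the median of the other CLC genes went from 0.05 to -0.12 with median-of-ratios scaling and to -0.07 with rescaled TPM. With a TPM of at least 10, 1601 genes were higher and 983 lower by more than 1 on the log2 scale, against 2860 and 1784. With a log2 threshold of 2 the counts were 958 and 521, and 3 of the 6 transport genes passed. The median log2 ratio of the 6 genes was 1.37 without Car2, Slc4a2 or Slc9b2 and 3.36 without Clcn7, Ostm1 or Slc4a7, so that any 1 gene moved it. Ostm1 fell below a log2 ratio of 1 with median-of-ratios scaling (0.92) and in 2 further alternatives, of 8. Clcn7 ranged from 1.01 to 1.199, Slc4a7 from 1.201 to 2.13, Slc4a2 from 2.97 to 3.39, Slc9b2 from 6.40 to 7.11 and Car2 from 6.14 to 10.68. Median-of-ratios scaling changed the share of higher genes among those over the threshold from 61.6% to 53.2%. All 6 genes kept a locus of their own when 20% of the exon bases of another gene made a locus shared. No paired analysis was possible because each condition has 1 library, and for the same reason no replicate could be left out.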
